A study of Mus musculus with 235 samples.

Results

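The genes described here are 10 genes of fatty acid synthesis in the liver, 8 enzymes (Acly, Acaca, Acacb, Fasn, Elovl5, Elovl6, Fads1 and Fads2) and 2 transcription factors (Srebf1 and Mlxipl). They were taken by symbol from the 18146 genes that had a probe set with that symbol alone, and each gene was read from its probe set with the highest mean. All 10 were found, and no filter on low values was applied. Liver RNA of female mice of 31 inbred strains, 8 to 10 weeks old, was measured on Affymetrix arrays, with 1 array per animal. The mice were given sterile water (124 arrays) or isoniazid at 100 mg/kg (111 arrays), a tuberculosis drug that can injure the liver, by gavage on 3 days, and the left lobe was collected 24 h later. The submitters coded 13 strains as having steatosis, a build-up of fat in liver cells, under isoniazid: BALB/cJ, BTBR T+ tf/J, BUB/BnJ, C57BLKS/J, CBA/J, CE/J, DBA/2J, FVB/NJ, LG/J, NOR/LtJ, NZW/LacJ, SJL/J and SWR/J. The 18 other strains were SM/J, SEA/GnJ, RIIIS/J, PWK/PhJ, PL/J, NON/LtJ, NOD/LtJ, MRL/MpJ, MA/MyJ, LP/J, KK/HIJ, C58/J, C57Bl/6J, C57BR/cdJ, C3H/HeJ, AKR/J, A/J and 129S1/SvImJ. Each strain had 4 vehicle animals, and 22 strains had 4 isoniazid animals. LG/J, LP/J, NON/LtJ, PL/J and RIIIS/J had 3, and A/J, MA/MyJ, SEA/GnJ and SM/J had 2, because animals that died were left out, so the isoniazid groups of these 9 strains hold survivors.

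Fatty acids are built in the cytosol from acetyl-CoA, which ATP citrate lyase (Acly) releases from citrate. The acetyl-CoA carboxylases (Acaca and Acacb) turn it into malonyl-CoA, fatty acid synthase (Fasn) strings these units into palmitate, and elongases (Elovl) and front-end desaturases (Fads1 and Fads2) lengthen and desaturate dietary and newly made chains. In liver the genes of these enzymes are known targets of SREBP-1c, a transcription factor encoded by Srebf1 that answers to insulin and to the sterol sensor LXR, and several also of ChREBP, encoded by Mlxipl, which answers to sugar.

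SREBP-1c and ChREBP act at promoters, so promoter sequences are shown of some members that rose (Fasn, Elovl5, Elovl6) and of the one that fell (Mlxipl). Acly, Acaca and Fads2 also rose, and their sequences are not shown. The sequences are from RefSeq on GRCm38.p6, 5′ to 3′ on the gene's strand, with 250 bases before and 50 bases from the annotated start. Each runs over 300 bases. Of the 10 genes, 9 matched the promoter table, with 12 promoters in all. Mlxipl and Srebf1 had more than 1 each, so the counts below are of promoters and not of genes. Capitals mark matches, on either strand, to 4 motifs: the E-box CACGTG, the sterol regulatory element TCACNCCAC, the CCAAT box CCAAT and the GC box GGGCGG. The promoters are those of Fasn at chr11:120824498-120824797 on the minus strand, Elovl5 at chr9:77917115-77917414, Elovl6 at chr3:129532136-129532435, and 2 of Mlxipl at chr5:135089640-135089939 and chr5:135106641-135106940, the last 4 on the plus strand.
Fasn: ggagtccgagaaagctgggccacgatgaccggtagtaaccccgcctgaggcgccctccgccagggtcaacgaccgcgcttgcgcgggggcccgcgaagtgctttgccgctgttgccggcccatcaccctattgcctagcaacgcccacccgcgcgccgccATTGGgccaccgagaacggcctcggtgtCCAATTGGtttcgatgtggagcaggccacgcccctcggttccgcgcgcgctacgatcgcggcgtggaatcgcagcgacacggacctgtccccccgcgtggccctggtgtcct
Elovl5: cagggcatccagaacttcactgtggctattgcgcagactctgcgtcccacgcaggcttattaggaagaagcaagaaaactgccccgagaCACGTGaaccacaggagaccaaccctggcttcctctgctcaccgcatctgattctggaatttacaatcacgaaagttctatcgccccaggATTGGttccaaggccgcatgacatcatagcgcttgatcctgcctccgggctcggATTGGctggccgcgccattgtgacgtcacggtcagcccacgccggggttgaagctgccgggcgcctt
Elovl6: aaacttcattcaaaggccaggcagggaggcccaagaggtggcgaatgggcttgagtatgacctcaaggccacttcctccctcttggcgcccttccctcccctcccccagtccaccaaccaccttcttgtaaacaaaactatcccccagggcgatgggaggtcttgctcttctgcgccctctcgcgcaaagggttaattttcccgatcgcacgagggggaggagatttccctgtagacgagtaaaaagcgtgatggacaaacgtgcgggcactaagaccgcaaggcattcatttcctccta
Mlxipl, first start: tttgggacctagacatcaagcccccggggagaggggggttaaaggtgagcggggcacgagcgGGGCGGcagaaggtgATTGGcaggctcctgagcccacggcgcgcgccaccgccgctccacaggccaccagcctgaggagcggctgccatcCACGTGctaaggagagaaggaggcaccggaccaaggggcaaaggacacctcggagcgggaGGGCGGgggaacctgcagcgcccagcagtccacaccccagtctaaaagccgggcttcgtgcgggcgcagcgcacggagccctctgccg
Mlxipl, second start: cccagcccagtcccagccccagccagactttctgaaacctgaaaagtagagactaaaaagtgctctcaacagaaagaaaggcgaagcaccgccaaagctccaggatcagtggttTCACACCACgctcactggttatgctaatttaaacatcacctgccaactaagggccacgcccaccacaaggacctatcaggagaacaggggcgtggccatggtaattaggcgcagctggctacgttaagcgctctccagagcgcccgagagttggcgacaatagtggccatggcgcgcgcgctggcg
The E-box was found in 2 of the 12 promoters, 161 bases before the start of Elovl5 and 98 bases before the first start of Mlxipl, against 7.15% of 32851 promoters of the same length. The sterol regulatory element was found in 1 of 12, 136 bases before the second start of Mlxipl, against 1.24%. CCAAT boxes, which bind the factor NF-Y, were found in 7 of 12, against 37.4%, and Fasn had 3, of which 2 overlap as CCAATTGG. GC boxes were found in 5 of 12, against 35.7%. The Elovl6 window held no match to the 4 motifs. These matches describe letters in a window.

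Over the 31 strains, 6 of the 8 enzymes rose with isoniazid and Mlxipl fell, whereas Acacb, Fads1 and Srebf1 did not pass the test. The strain was the replicate, with the mean of its vehicle animals subtracted from the mean of its isoniazid animals, and the 31 differences were tested with limma at an adjusted p under 0.05 (Benjamini-Hochberg over 18146 genes). Of all genes, 20.0% were called, 10.2% higher and 9.85% lower, and the median change of all genes was 0.00. All values are RMA values on the log2 scale, and a change is a difference of such values. The elongases and Fads2 had the largest rises, between 0.32 and 0.58, and Acly, Acaca and Fasn rose by 0.26 to 0.27.

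**Figure D1:**
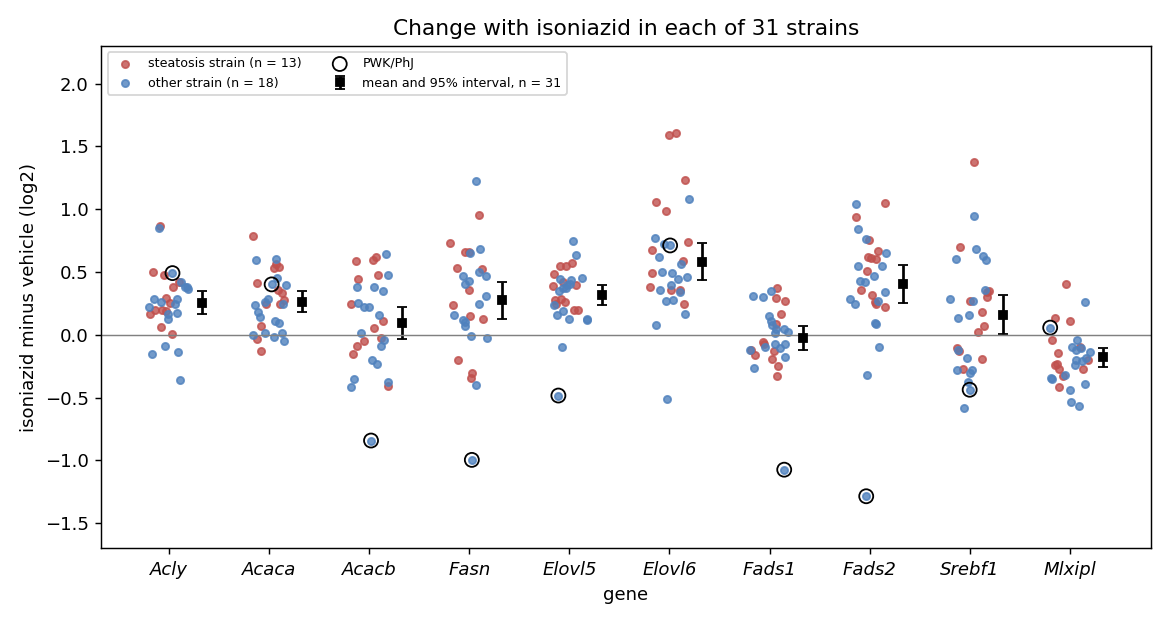
Change with isoniazid (log2, isoniazid minus vehicle, vertical axis) of each gene (horizontal axis) in each strain, red for the 13 steatosis strains and blue for the 18 others, with the mean and its 95% interval as a black square and bar. The points of Elovl6 lie above 0 in 30 strains, those of Mlxipl below 0 in 26, and the ringed PWK/PhJ is the lowest point of Acacb, Fasn, Elovl5, Fads1 and Fads2.

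Acly, which supplies the acetyl-CoA, had vehicle strain means from 8.27 (PWK/PhJ) through a median of 8.98 to 9.31 (C57Bl/6J), and isoniazid means from 8.31 (C58/J) through 9.24 to 9.81 (LG/J). It rose from 8.95 ± 0.25 to 9.21 ± 0.35 (mean ± SD, n = 31 strains), a change of 0.26 (SE 0.04, limma adjusted p = 5.14e-05, 1.19-fold), and was higher in 27 strains. The ranges of vehicle and isoniazid means overlapped broadly. The rise is a mean over the differences within strains, and Acly was called within only 2 single strains, LG/J and PWK/PhJ. The changes ran from -0.36 in SEA/GnJ to 0.87 in LG/J, with A/J at 0.85. The lowest value rests on 1 narrow-spread array of 2, without which Acly changed by -0.053 in SEA/GnJ and C58/J was lowest at -0.29. In LG/J the vehicle animals measured 8.80, 8.94, 9.31 and 8.72 and the isoniazid animals 9.77, 9.95 and 9.72, with no overlap. Of the 6 probe sets of Acly, the 3 at the highest levels gave changes of 0.25 to 0.26 and the 3 dim ones 0.00 to 0.08.

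The carboxylases differed. Acaca, the cytosolic form that feeds synthesis, had vehicle means from 7.29 (RIIIS/J) through 7.77 to 8.17 (C57Bl/6J) and isoniazid means from 7.45 (KK/HIJ) through 7.98 to 8.63 (A/J). It rose by 0.26 (SE 0.04, limma adjusted p = 7.37e-06, 1.20-fold) and was higher in 27 strains. Its highest change was 0.79 in LG/J, where the vehicle animals measured 7.76, 7.75, 8.02 and 7.62 and the isoniazid animals 8.65, 8.76 and 8.31. Acacb, the form at the mitochondrial membrane whose malonyl-CoA restrains fatty acid entry for oxidation, had a mean of 6.74 ± 0.65 in vehicle and 6.83 ± 0.59 in isoniazid strains (SD, n = 31). Its change of 0.10 did not pass (95% interval -0.03 to 0.22, limma adjusted p = 0.326), with 18 strains higher and 13 lower. The change of Acaca exceeded that of Acacb by 0.17 (95% interval 0.03 to 0.31, two-sided permutation test by sign flips over strains, p adjusted over 5 pairs = 0.0171), in 21 strains. This difference missed the threshold without the 21 arrays of narrow spread (0.14, adjusted p = 0.0523) and in the 22 strains with no deaths (0.10, adjusted p = 0.279). A second, dim probe set of each gene gave changes near 0.

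Fasn had vehicle means from 6.52 (NON/LtJ) through 7.32 to 7.93 (BTBR T+ tf/J) and isoniazid means from 6.62 (BALB/cJ) through 7.57 to 8.66 (A/J). It rose by 0.27 (SE 0.07, limma adjusted p = 0.00662, 1.21-fold) and was higher in 24 strains and lower in 7. In A/J the vehicle animals measured 7.59, 7.46, 7.40 and 7.28 and the 2 isoniazid animals 8.58 and 8.74. In FVB/NJ the vehicle animals measured 7.01, 7.34, 7.29 and 7.14 and the isoniazid animals 8.63, 7.76, 7.96 and 8.24. The groups did not overlap in either strain, and the changes of 1.22 and 0.95 were the highest of Fasn, yet neither passed the test within the strain. Without the narrow-spread arrays Fasn was called in FVB/NJ (1.02, limma adjusted p = 0.0383). In the 22 strains with no deaths the mean change was 0.21 and was not called (limma adjusted p = 0.123).

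Elovl6, the elongase that turns palmitate into stearate, had the largest change of the 10 genes. Its vehicle means ran from 5.81 (C58/J) through 6.52 to 7.70 (C57Bl/6J) and its isoniazid means from 6.20 (C58/J) through 7.09 to 8.16 (C57Bl/6J). It rose from 6.55 ± 0.37 to 7.13 ± 0.49 (SD, n = 31), by 0.58 (SE 0.07, limma adjusted p = 2.13e-07, 1.496-fold), and was higher in 30 strains. C57Bl/6J was highest and C58/J lowest with either treatment. In NZW/LacJ the vehicle animals measured 6.30, 6.03, 6.63 and 6.42 and the isoniazid animals 8.05, 7.71, 8.06 and 7.91. In LG/J they measured 6.70, 6.45, 6.65 and 6.20 against 8.50, 8.38 and 7.43. The groups were wide apart in both strains, with changes of 1.588 and 1.603. SEA/GnJ was the one strain with a negative change (-0.51), with vehicle animals at 7.26, 7.41, 7.13 and 7.28 and its 2 isoniazid animals at 7.00 and 6.52. One of these 2 was an array of narrow spread, and without it the change was -0.27. With all narrow-spread arrays left out Elovl6 was higher in 29 strains, and SJL/J also lay below 0 (-0.10). A second probe set of Elovl6 at a like level gave 0.53 and another, dim one 0.03.

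Elovl5, the elongase of polyunsaturated chains, had vehicle means from 10.66 (C57BR/cdJ) through 12.08 to 12.49 (NOD/LtJ) and isoniazid means from 10.63 (PWK/PhJ) through 12.41 to 12.81 (A/J). It rose by 0.32 (SE 0.04, limma adjusted p = 3.71e-07, 1.25-fold), in 29 strains, and its second probe set also gave 0.32. In BTBR T+ tf/J the vehicle animals measured 12.13, 12.16, 12.10 and 11.94 and the isoniazid animals 12.69, 12.60, 12.56 and 12.68. In C57BR/cdJ they measured 10.55, 10.03, 10.86 and 11.21 against 11.47, 11.66, 11.25 and 11.27. Neither strain showed overlap. All isoniazid animals lay above all vehicle animals in 16 of 31 strains, more strains than for any other of the 10 genes. Over all genes, 5.04% of the pairs of a gene and a strain lay so. The change of Elovl6 exceeded that of Elovl5 by 0.26 (95% interval 0.09 to 0.43, permutation p adjusted over 5 pairs = 0.00411), in 23 strains. With the mean over each gene's probe sets, which takes in the dim set of Elovl6, the difference was 0.061 (adjusted p = 0.349).

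The 2 front-end desaturases parted. Fads2, the delta-6 desaturase that opens the path to long polyunsaturated fatty acids, had vehicle means from 8.71 (NZW/LacJ) through 9.47 to 10.06 (SEA/GnJ) and isoniazid means from 8.16 (PWK/PhJ) through 9.88 to 10.48 (PL/J). It rose by 0.40 (SE 0.07, limma adjusted p = 0.000107, 1.32-fold), in 28 strains, and its other probe sets gave 0.44 and 0.31. In NZW/LacJ the vehicle animals measured 8.63, 8.86, 8.63 and 8.72 and the isoniazid animals 9.77, 9.63, 9.65 and 9.97. In LP/J they measured 8.83, 9.03, 8.90 and 9.24 against 9.96, 9.97 and 10.19. Neither pair of groups overlapped.

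Fads1, the delta-5 desaturase later in that path, had a mean of 10.84 ± 0.40 in vehicle and 10.81 ± 0.42 in isoniazid strains (SD, n = 31). The change was -0.02 (95% interval -0.12 to 0.07, limma adjusted p = 0.812), with 15 strains higher and 16 lower. Its mean was 0.01 without PWK/PhJ and 0.06 with the mean of its 2 probe sets, so it has no settled sign. The change of Fads1 was below that of Fads2 in 28 strains, with a mean difference of -0.43 (95% interval -0.55 to -0.30, permutation p adjusted over 5 pairs = 2.5e-05, from the smallest p that 100000 resamples can give). Scd1, the delta-9 desaturase, fell by -1.50 in the same animals, 1.77 below Fasn (95% interval 1.43 to 2.10, permutation p adjusted over 5 pairs = 2.5e-05), and the change of Fasn was the higher one in 30 strains.

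**Figure D2:**
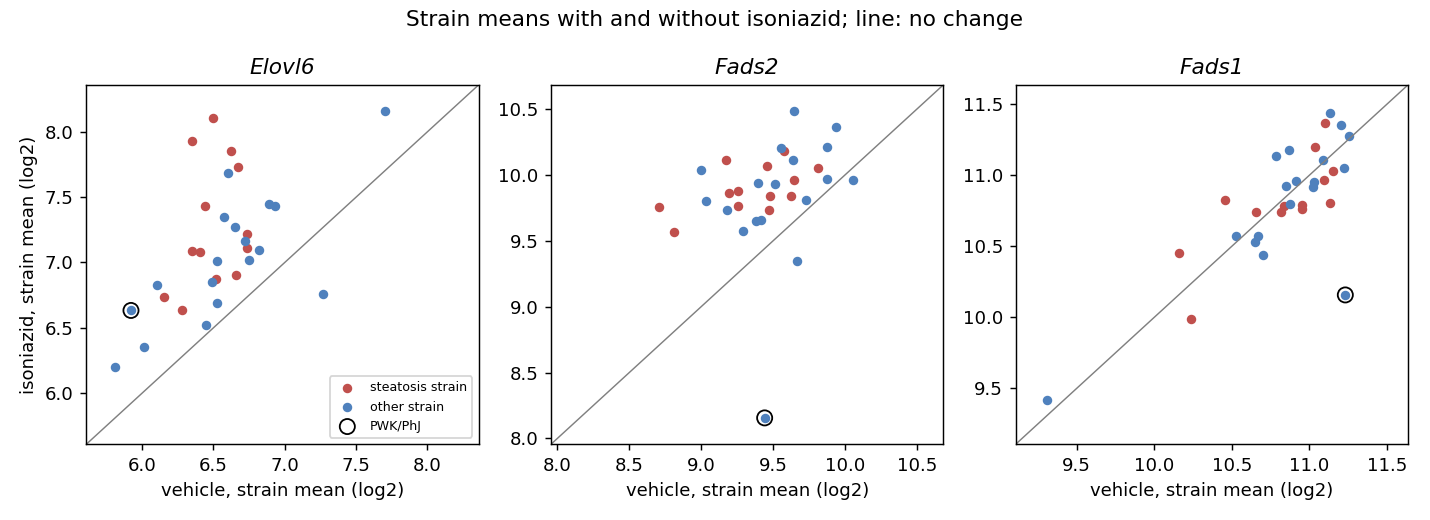
Strain means (log2) of vehicle animals (horizontal axis) against isoniazid animals (vertical axis) for Elovl6, Fads2 and Fads1, with the grey line at no change, red points for steatosis strains and blue for others. Elovl6 and Fads2 lie above the line in 30 and 28 strains, Fads1 scatters around it, and the ringed PWK/PhJ lies far below the line for Fads2 and Fads1.

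Of the transcription factor genes, Mlxipl fell and Srebf1 did not pass the test over strains. Srebf1 had vehicle means from 6.90 (C57BR/cdJ) through 8.06 to 9.26 (C3H/HeJ) and isoniazid means from 6.62 (C57BR/cdJ) through 8.44 to 9.81 (LG/J). Its change of 0.16 did not pass (95% interval 0.01 to 0.31, limma adjusted p = 0.135), with 19 strains higher and 12 lower. It passed with animals in place of strains as replicates (0.15, limma adjusted p = 0.0217). That fit counts animals of the same strain as independent and has no term for effects that differ between strains. In LG/J the vehicle animals measured 8.59, 8.32, 8.67 and 8.17 and the isoniazid animals 10.11, 9.85 and 9.47, a change of 1.37. In 129S1/SvImJ they measured 8.41, 8.72, 8.47 and 8.32 against 7.50, 7.69, 7.94 and 8.46, a change of -0.58. The groups were apart in LG/J and overlapped in 129S1/SvImJ. A single probe set measured Srebf1, and RNA does not show how much of the protein was cleaved to its active form.

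Mlxipl had vehicle means from 8.05 (BALB/cJ) through 8.52 to 9.28 (MA/MyJ) and isoniazid means from 7.52 (C57BR/cdJ) through 8.39 to 9.18 (MA/MyJ). It fell by 0.18 on the log2 scale (SE 0.04, limma adjusted p = 0.000623, 1.13-fold lower), in 26 strains. The lowest change was -0.57 in NOD/LtJ, where the vehicle animals measured 8.79, 8.52, 8.37 and 8.52 and the isoniazid animals 7.74, 8.10, 8.35 and 7.74. The highest was 0.40 in SWR/J, where they measured 8.60, 7.49, 8.40 and 8.12 against 8.62, 8.79, 8.54 and 8.26. The animals of NOD/LtJ did not overlap and those of SWR/J did. Without the narrow-spread arrays SWR/J stood at 0.18, the highest was 0.21 in KK/HIJ and the lowest -0.67 in SJL/J. The change of Srebf1 exceeded that of Mlxipl by 0.34 (95% interval 0.17 to 0.51, permutation p adjusted over 5 pairs = 0.00035), in 24 strains.

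The same comparison was made within each strain, with limma on animals. Of 310 pairs of a gene and a strain, 16 were called higher and 5 lower, against a background of 1.27% higher and 0.723% lower over 562526 pairs of all genes. Without the narrow-spread arrays 23 were called higher and 5 lower (background 1.35% and 1.03%), with Fads2 called higher in 8 strains in place of 4 and BTBR T+ tf/J holding 5 genes in place of 3. All isoniazid animals lay above all vehicle animals in 70 of the 310 pairs (background 5.04%) and below them in 16 (background 4.53%). Elovl6 was called in 6 strains: PWK/PhJ (0.71), DBA/2J (0.99), C57BLKS/J (1.05), BTBR T+ tf/J (1.23), NZW/LacJ (1.588) and LG/J (1.603). Fads2 was called higher in 129S1/SvImJ (0.77), BTBR T+ tf/J (0.94), LP/J (1.04) and NZW/LacJ (1.05). LG/J had 4 genes called, Acly, Acaca, Elovl6 and Srebf1, in a strain where 2.96% of all genes were called. BTBR T+ tf/J had 3, Elovl5, Elovl6 and Fads2, where 2.28% of all genes were called. SWR/J had all 10 genes above 0, with none called, and SEA/GnJ had 2 of 10 above 0, with a median change of -0.19 from 2 isoniazid animals. Without the narrow-spread array among these 2, SEA/GnJ had 6 of 10 above 0 and a median of 0.079, so its direction turned. The share of all genes called was 12.7% in NZW/LacJ, 5.76% in DBA/2J, 1.15% in C57BR/cdJ, 0.926% in C57BLKS/J, 0.810% in LP/J and 0.441% in 129S1/SvImJ.

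**Figure D3:**
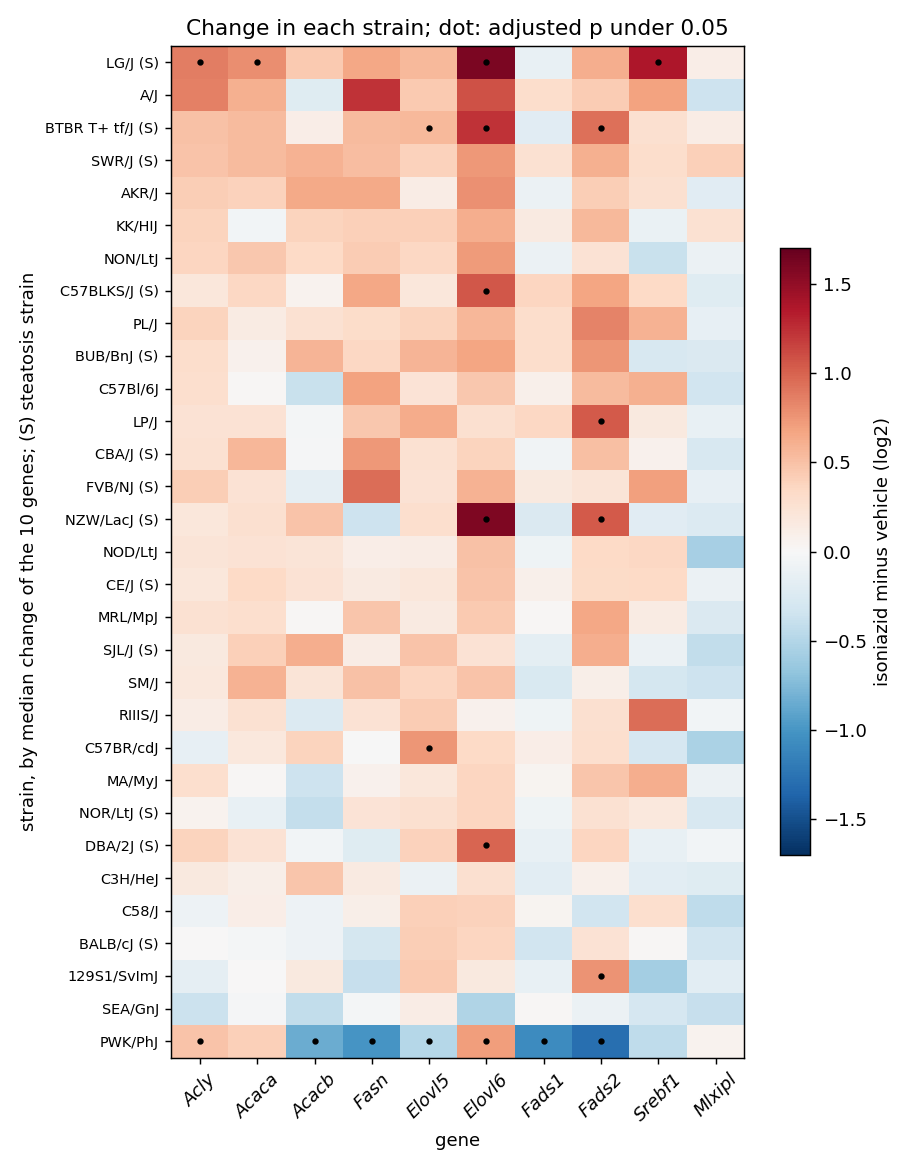
Change with isoniazid (log2, colour scale, red for higher and blue for lower) of the 10 genes (columns) in the 31 strains (rows, ordered by the median change of the 10 genes), with a dot where the limma adjusted p within the strain was under 0.05. Most cells of Elovl6, Elovl5 and Fads2 are red, Mlxipl is blue in 26 strains, and PWK/PhJ in the bottom row holds all 5 lower calls.

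PWK/PhJ stood apart. All 5 lower calls were in this strain, Acacb (-0.84), Fasn (-0.996), Elovl5 (-0.48), Fads1 (-1.07) and Fads2 (-1.29), whereas Acly (0.49) and Elovl6 (0.71) were called higher. Of all genes, 15.1% were called in PWK/PhJ, more than in any other strain. Fads1 measured 11.53, 10.71, 11.32 and 11.37 in vehicle animals and 10.28, 10.07, 10.25 and 10.03 in isoniazid animals. Fads2 measured 9.13, 9.28, 9.76 and 9.59 against 8.93, 7.43, 8.24 and 8.02. Fasn measured 7.64, 7.28, 8.08 and 7.67 against 6.88, 5.81, 6.99 and 7.00. The groups of these genes did not overlap. Acacb measured 7.41, 7.57, 8.29 and 8.37 against 7.24, 6.98, 7.21 and 6.85, also apart. Elovl5 overlapped, with 11.59, 10.47, 11.19 and 11.21 against 10.27, 9.91, 11.28 and 11.06. In the 30 other strains the mean change was 0.46 ± 0.32 (SD) for Fads2, with -0.32 as the lowest, and 0.01 ± 0.19 for Fads1, with -0.33 as the lowest.

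The falls in PWK/PhJ appeared in further probe sets: those of Fads2 gave -1.02 and -0.88 and that of Elovl5 -0.51, while the dim second set of Fads1 gave -0.16. One PWK/PhJ vehicle array had a narrow spread. Without it the 5 falls ran from -0.70 for Elovl5 to -1.34 for Fads2, all still called, but Acly (0.37, limma adjusted p = 0.112) and Elovl6 (0.18, limma adjusted p = 0.748) were no longer called. Elovl6 in the vehicle animals measured 6.77, 4.32, 6.84 and 5.75, against 6.68, 6.67, 6.76 and 6.42 with isoniazid, so 1 low vehicle animal carried much of that difference. Without PWK/PhJ the calls over the remaining strains stayed at 6 higher and 1 lower.

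**Figure D4:**
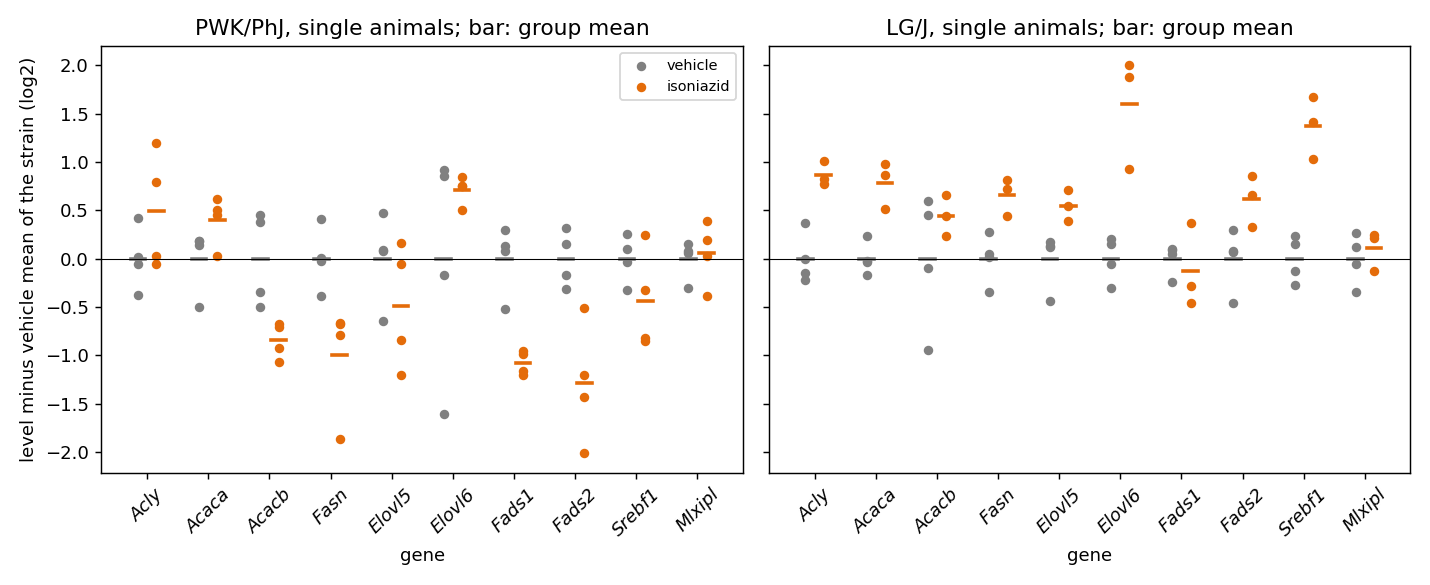
Single animals of PWK/PhJ (left) and LG/J (right), as level minus the strain's vehicle mean (log2, vertical axis), for each gene (horizontal axis), grey for vehicle, orange for isoniazid, with bars at group means. In PWK/PhJ the isoniazid animals of Fads1, Fads2, Fasn and Acacb lie below all vehicle animals, and in LG/J those of Elovl6, Srebf1, Acly and Acaca lie above them.

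Whether the effect differed between strains was tested by the interaction of strain and treatment in limma. It passed for 8 of the 10 genes, against 17.0% of all genes, with the smallest adjusted p for Fads2 (2.62e-09), Fads1 (0.000169) and Fasn (0.000188). It did not pass for Acaca (limma adjusted p = 0.0677) or Mlxipl (0.379). Without PWK/PhJ 4 genes passed: Fasn (limma adjusted p = 0.024), Elovl6 (0.00511), Fads2 (0.00684) and Srebf1 (0.00272). Fads1 then gave limma adjusted p = 0.266 and Elovl5 0.52. Without the animals numbered 1 in every group, 3 genes passed. The 17.0% belongs to the full fit, and the share of all genes was not counted for these smaller fits.

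The level without drug differed between strains for 10 of 10 genes by limma, where 53.4% of all genes passed. Acacb spanned the widest range, from 4.95 in NZW/LacJ to 8.43 in C58/J, 11.2-fold (limma adjusted p = 4.88e-33). Its vehicle animals measured 5.03, 4.47, 5.99 and 4.32 in NZW/LacJ and 8.29, 8.43, 8.20 and 8.79 in C58/J. LG/J was next to lowest at 5.56 and PWK/PhJ next to highest at 7.91, and the extremes of C58/J and NZW/LacJ were the same with isoniazid (8.34 and 5.43). Srebf1 spanned 5.13-fold, from 6.90 in C57BR/cdJ to 9.26 in C3H/HeJ, with CBA/J second at 8.97. Fads1 spanned 3.86-fold, from 9.31 in C57BR/cdJ to 11.26 in MRL/MpJ, and Elovl5 3.54-fold, from 10.66 in C57BR/cdJ to 12.49 in NOD/LtJ. C57BR/cdJ was thus lowest for Srebf1, Fads1 and Elovl5. The ranges of Elovl6 (3.71-fold), Fasn (2.66-fold), Fads2 (2.54-fold), Mlxipl (2.34-fold), Acly (2.05-fold) and Acaca (1.84-fold) followed. Neighbours in these orders overlapped: of 30 neighbouring pairs of strains, none was apart in all animals for 9 genes, and 1 was for Fads1. Each range rests on 1 probe set. In vehicle levels the dim second set of Acacb gave Pearson r = 0.06 with the set used, and that of Fads1 0.44. The second set of Elovl5 gave 0.99 and the set of Elovl6 at a like level 0.96. Whether strain variants under the probes shift these levels was not tested.

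**Figure D5:**
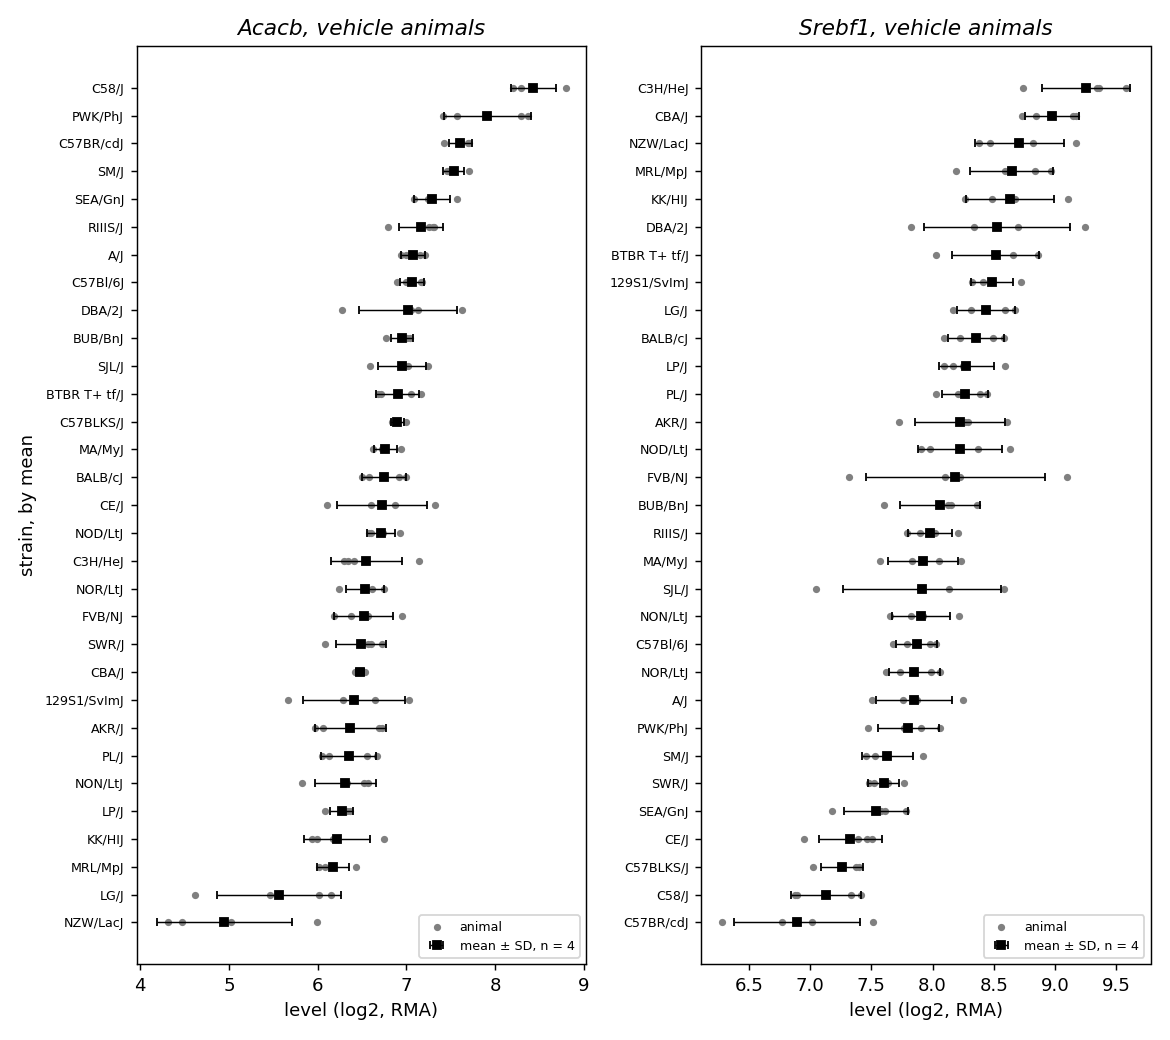
Vehicle levels (log2, horizontal axis) of Acacb (left) and Srebf1 (right) in each strain (vertical axis, ordered by mean), with grey points for animals and black squares and bars for mean ± SD (n = 4). Acacb runs from 4.95 in NZW/LacJ to 8.43 in C58/J and Srebf1 from 6.90 in C57BR/cdJ to 9.26 in C3H/HeJ.

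The steatosis code of the strains was compared with the effect and with the vehicle level. None of the 10 genes passed in either comparison by limma, nor did any of the 18146 genes, where 2.71% and 4.06% of genes had an unadjusted p under 0.05. Elovl6 had the widest gap, with a change of 0.79 ± 0.46 in 13 steatosis strains and 0.43 ± 0.33 in 18 others (SD), a difference of 0.36 (95% interval 0.09 to 0.64). It was among the 2.71% of genes with an unadjusted p under 0.05 and did not pass after adjustment. Elovl6, Elovl5, Fads2 and Acly were higher in all 13 steatosis strains and in 17, 16, 15 and 14 of the 18 others. Without the narrow-spread arrays the steatosis strain SJL/J fell below 0 for Elovl6 (-0.10) and Acly (-0.004). The gap for Fads2 was 0.25 (95% interval -0.04 to 0.55). For Srebf1 the gap was 0.11 (95% interval -0.20 to 0.42) and for Fasn 0.07 (95% interval -0.24 to 0.38). Among vehicle animals Acacb was lower in steatosis strains by a difference of -0.38 with a 95% interval of -0.83 to 0.07, which did not pass.

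The changes of the 10 genes were compared with each other over the 31 strains, as 45 pairs with permutation p-values adjusted over them. Of the 45 Pearson correlations 39 were positive and 12 passed, all positive, of which 6 also passed by Spearman. The closest pair was Acly and Elovl6, with r = 0.73 and rho = 0.78, and r = 0.55 without SEA/GnJ and LG/J, the 2 strains farthest out for Acly. Acly and Acaca gave r = 0.64 and rho = 0.51, and r = 0.52 without the same 2 strains. Fasn and Srebf1 gave r = 0.55 and rho = 0.51, and r = 0.47 without PWK/PhJ and A/J. Fads1 and Fads2 gave r = 0.62 but rho = 0.27, and r = 0.20 without PWK/PhJ and C57BLKS/J. Without PWK/PhJ alone r was 0.23, so that relation rests mostly on PWK/PhJ. None of the 12 stayed under the threshold after its 2 farthest strains were left out. The changes of 2 genes in a strain come from the same animals, so these values share array and animal.

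In vehicle levels 6 pairs passed as positive and 3 as negative. Acaca and Fasn went together over strains (r = 0.66, rho = 0.68), as did Acly and Srebf1 (r = 0.59, rho = 0.59), and Acacb ran against Srebf1 (r = -0.62, rho = -0.63). These 3 relations passed by both measures, with permutation p adjusted over 45 pairs of 0.0018, 0.0062 and 0.0054 for r, and also without their 2 farthest strains (r = 0.65, 0.57 and -0.54).

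The counts of other pathway genes are to be read against the 10.2% of all genes called higher and 9.85% called lower. Of 25 further enzymes of fatty acid synthesis, elongation and desaturation, 4 rose and 4 fell by limma, with a median change of 0.04. Fads6 (0.25), Elovl2 (0.20), an elongase of polyunsaturated chains, Aacs (0.26), which activates acetoacetate for synthesis, and Oxsm (0.16), the mitochondrial synthase, rose. Scd1, Scd2 (-0.20), Hacd1 (-0.18) and Me1 (-0.15), malic enzyme, fell. Of 8 genes listed for NADPH supply, some of which make no NADPH themselves, 4 rose and 1 fell. Pgd (0.41), H6pd (0.23), Idh1 (0.09) and Taldo1 (0.09) rose, and Tkt fell by 0.18 on the log2 scale. The listed G6pdx was not analysed, and Me1, which also makes NADPH, was counted among the enzymes above. Without the narrow-spread arrays 2 of the 8 rose (Pgd and H6pd) and 2 fell (Tkt and Rpe), and with scan set as a term 4 rose and 2 fell. Of 24 regulators of SREBP-1c and LXR, 2 rose (Nfyc, 0.11, and Gsk3b, 0.14) and 2 fell (Nfyb, -0.35, a subunit of NF-Y, and Usf2, -0.12), shares near those of all genes.

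Of 12 partners and glycolytic targets of ChREBP, 5 rose and none fell, with a median change of 0.14: Tkfc (0.67) and Khk (0.17) of fructose use, the glucose transporter Slc2a2 (0.31), Slc37a4 (0.14) and Gpd1 (0.13). Without the narrow-spread arrays Mlx (0.09) and Pklr (0.17) also passed as higher. Of 9 LXR targets of sterol handling, none rose by limma (1 was higher at an unadjusted p under 0.05) and 5 fell, with a median of -0.09: Pltp (-0.31), Mylip (-0.21), Abcg8 (-0.16), Abcg5 (-0.15) and Abca1 (-0.09). Of 9 genes of glycerolipid synthesis, Agpat3 rose (0.51, in 31 strains) and Dgat2, the last step to triglyceride, fell (-0.19). None of 8 genes of malonyl-CoA removal and AMPK passed by limma, and 0 had an unadjusted p under 0.05.

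Liver is a mixture of cells, and in such bulk RNA fewer cells of a type and less RNA per cell cannot be told apart. Of 9 hepatocyte markers, Cps1 rose (0.17) and Hnf4a fell (-0.20), and albumin RNA had a vehicle mean of 14.4. Of 12 macrophage markers none rose and 9 fell, with a median change of -0.22, and their summed level ran from 10.4 to 12.8 over vehicle and 9.85 to 13.0 over isoniazid strains. Without the narrow-spread arrays C1qa, C1qb and Vsig4 were no longer among those that fell by limma. In 10 endothelial markers 2 fell, in 10 stellate cell, 6 bile duct, 10 T and NK cell, 7 neutrophil and 4 red cell markers 1 each, and in 7 B cell markers 2. Among 5 pancreas markers 1 rose. These counts are to be read against the 10.2% of all genes called higher and the 9.85% called lower. The part of these cells in the results was not tested. Adipocytes also express these enzymes. Of 7 adipocyte markers 1 rose (Aqp7, 0.09), 5 lay under the median level of all genes, and the defining markers Adipoq and Lep had vehicle means of 3.60 and 2.53, where array medians ran from 3.96 to 4.21. Fabp4 (6.17) and Lipe (5.91), the other 2 of the 7, lay above the median gene and did not pass by limma.

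Arrays had been scanned in 10 sets of 22 to 24 that mixed strains and treatments, but not evenly. One set held 8 vehicle and 15 isoniazid arrays, and another held 15 and 9. The former held most isoniazid arrays of LG/J and SWR/J and none of their vehicle arrays. In these 2 strains the treatment and that set cannot be fully told apart. Within the 10 sets, Acly, Acaca, Elovl5, Elovl6 and Fads2 were higher with isoniazid in all 10, Fasn in 9 and Mlxipl in 1, after each strain's own level was taken out. The within-set changes ran from 0.30 to 1.14 for Elovl6, from 0.23 to 0.54 for Fads2 and from -0.05 to 0.70 for Fasn, and for Mlxipl from -0.35 to 0.14. The highest values of Elovl6 and Mlxipl came from the set with 15 isoniazid arrays.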

How the data were processed

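The authors deposited log2 values for each probe set. The submitters' processing notes name RMA and Affymetrix Power Tools, with versions not given in the sources used here. The RMA method equalises array distributions, so a shift of all genes would be removed, and compresses low values. Probes follow a reference sequence, and a strain's variant under a probe can shift that strain's level. The number of arrays limits the precision. Of 44721 probe sets, 34717 had 1 gene symbol in the array annotation, 872 several, 9072 were not listed and 60 were controls. No 2 arrays were identical. A set of 21 arrays (11 vehicle, 10 isoniazid) had a narrower spread of values (SD 2.10 to 2.20, others 2.23 to 2.35) and was kept.

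Strain differences were tested with limma 3.58.1 in R 4.3.3 (lmFit, eBayes, two-sided). Within-strain effects, the interaction and vehicle levels came from a limma fit of all groups with animals as replicates (173 residual degrees of freedom). Differences between genes (sign flips) and correlations used two-sided permutation tests with 100000 resamples. On simulated data the limma test over strains recovered 89.7% of changes of 0.25 and 100% of those of 0.5 among 18146 genes. These shares pool genes drawn at random, each with its own spread. They do not give the recovery for Srebf1 (SD of the change over strains 0.44) or Acacb (0.36). The named genes are the 10 members, list members that passed, and for each member the 3 genes with the highest correlation of change. Members and lists were chosen with earlier results of these data known. Of the list entries, 24 were not analysed here. Animal numbers did not pair samples (median correlation -0.02 between same-numbered animals, 0.01 between others). Nothing in the labels states pooling, so each array is taken as 1 animal.

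Alternatives were scan set as a term, centring, the mean of probe sets, a filter on dim genes (10888 left), animals as replicates, a replicate block, each animal number and strain left out, 22 strains without deaths, and a 1.5-fold threshold. Leaving out single strains for the interaction, the gene differences and the correlations was added after PWK/PhJ was seen to stand apart.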

Additional observations from a re-analysis of the deposited data

Results flagged for a closer look

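The effect of isoniazid differed between strains, by the limma interaction test, for Fads2 (adjusted p = 2.62e-09), Fads1 (0.000169), Fasn (0.000188), Srebf1 (0.000888), Elovl6 (0.00438), Acacb (0.00894), Acly (0.0367) and Elovl5 (0.0381). Without PWK/PhJ the adjusted p was 0.0536 for Acly and 0.112 for Acacb.

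One isoniazid animal of PWK/PhJ had a Fasn level of 5.81, far below the other animals of its group at 6.88, 6.99 and 7.00. Of 530 groups of 4 animals over the genes, 25 held an animal this far from the rest (4.72%), and such a distance arises by chance in about 1 in 20 groups.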

How the results depend on the processing

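Under the replicate block, by animal number, 6 genes were called higher and 1 lower over strains and 15 and 5 pairs within strains, and no call over strains changed. Over all alternatives 11 to 23 pairs were called higher within strains and 4 to 5 lower, the most without narrow-spread arrays. That alternative also moved list counts: NADPH supply to 2 higher and 2 lower, glycerolipid synthesis to 2 higher, hepatocyte and stellate markers to 3 lower each, endothelial markers to 1 lower, and adipocyte markers to 0 higher and neutrophil markers to 0 lower. The macrophage markers C1qa, C1qb and Vsig4 no longer passed. Mlx and Pklr of the ChREBP list and the regulator Mbtps2 then passed as higher, and the regulator Fbxw7 and the B cell marker Cd22 as lower. With a threshold of 1.5-fold added, 0 genes were called higher and 0 lower, Elovl6 lying just under it. The interaction passed for 3 to 7 genes when each animal number was left out, and for 4 to 8 when each strain was, the 4 being without PWK/PhJ. For these fits the share of all genes that passed was not counted. Elovl6 minus Elovl5 was 0.061 with the mean of probe sets. Acaca minus Acacb was 0.14 without narrow-spread arrays, 0.10 in the 22 strains without deaths and 0.13 to 0.19 when each animal number was left out, the lowest without animals numbered 1. The pairs of correlated changes numbered 6 to 14 when each animal number was left out, the 6 being without animals numbered 2, and 4 in the 22 strains. The causes were not tested. The interaction of Acly and Elovl5 was not called after centring (limma adjusted p = 0.0752 and 0.0675). No result changed sign while called. Signals near background limit the dim probe sets.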

Other observations

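For each of the 10 genes, the 3 genes whose change over the 31 strains was most like its own by Pearson r were listed, as a description. They are the highest of a search over all genes, and no chance level was worked out. A high r here thus does not by itself show a relation. Fads1 was closest to Slco2b1 (r = 0.83), Hadh (0.82), a dehydrogenase of fatty acid oxidation, and Tecr (0.82), the reductase of the elongation cycle, and r was 0.60, 0.61 and 0.59 without PWK/PhJ. Fads2 was closest to Fabp1 (0.81), the liver fatty acid binding protein, Myo1c (0.81) and Elovl2 (0.78), with 0.62, 0.68 and 0.53 without PWK/PhJ. Fasn was closest to Tecr (0.74), C8g (0.73) and Aacs (0.72), with 0.64, 0.59 and 0.77 without PWK/PhJ. Acly was closest to Lrrc28 (0.75), Aacs (0.71) and Fkbp2 (0.69), and Elovl6 to Mrps25 (0.76), Fam169b (0.75) and Gins4 (0.74), with little change without PWK/PhJ.

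Elovl5 was closest to Acsl5 (0.69), Fabp1 (0.69) and Fabp2 (0.69), with 0.47, 0.43 and 0.39 without PWK/PhJ. Acacb was closest to Polg (0.77), Fam53b (0.77) and Ap3b1 (0.76), Acaca to Bri3 (0.62), Gbe1 (0.62) and Cert1 (0.62), Srebf1 to Ece1 (0.72), 3200001D21Rik (0.68) and Gab1 (0.66), and Mlxipl to Gdpgp1 (0.69), Tbc1d16 (0.67) and Vps26c (0.66). The change of Scd1 gave r from -0.21 with Elovl6 to 0.31 with Fasn over the 31 strains.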
